A study of Mus with 4 samples.

Results

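The Sstr2 peptidergic neurons of the mouse dorsal root ganglion (DRG) were studied as sums of unique molecular identifiers (UMIs, counts of captured mRNA molecules) per library, in naive mice (CON) and 3 days after CCI, a chronic constriction injury made by loose ligatures around the sciatic nerve. A neuron was a barcode with at least 8000 UMIs, under 20% mitochondrial UMIs, and at least 20 UMIs of Snap25, Uchl1 and Tubb3 that also outnumbered those of Apoe and Fabp7. An Sstr2 neuron was one with at least 3 UMIs of Sstr2 and at least 1 per 10000 of its UMIs, and with Sprr1a under 10, Mrgprd under 1 and Pvalb under 3 per 10000. These limits took 256 of 3740 neurons and of 37451 barcodes, namely 88 of 939 neurons in CON replicate 1, 25 of 247 in CON replicate 2, 79 of 1653 in CCI replicate 1 and 64 of 901 in CCI replicate 2. The members were therefore chosen on measured values, and the genes of the limits are given below as levels with no test. All libraries came from wildtype mice, which the study's methods describe as male C57BL/6J animals of 8 weeks, and the ganglia were the L4 and L5 DRGs. Although the labels give neuron as the cell type, the libraries came from dissociated ganglia and held glia and other cells as well. The CON mice were naive rather than sham operated, so surgery and ligature cannot be told apart. How many mice went into a library is not stated. The p-values of CCI against CON therefore reflect only how far 2 libraries of a group lie apart, which may be technical. Comparisons of neuron groups were paired by library, and their p-values reflect how alike the differences within a library were between libraries.

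Peptidergic nociceptors are small sensory neurons that detect noxious heat, chemicals and pressure and release CGRP (encoded by Calca) and substance P (encoded by Tac1) from their endings in skin, viscera and spinal cord. Sstr2 encodes a receptor for somatostatin that couples to G proteins of the Gi/o type, which lower cyclic AMP, open inwardly rectifying potassium (GIRK) channels and reduce calcium entry, and so quieten the neuron. Somatostatin itself (Sst) is made in the DRG mainly by a class of itch neurons.

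Members held between 9840 and 173373 UMIs. The median member of CON held 34884 UMIs in replicate 1 and 124785 in replicate 2, and that of CCI 50378 and 58176.5. CON replicate 2 was thus the smallest in cells and the deepest per cell. Summed over members, the libraries held 3069546, 3147963, 3955215 and 3838270 UMIs, and the sums were close in size although the cell numbers were not. No member barcode occurred in more than 1 library, and the pairs of libraries shared between 12 and 31 barcodes among all cells. Below, values per library stand in the order CON replicate 1, CON replicate 2, CCI replicate 1 and CCI replicate 2, as CPM, a gene's UMIs scaled to the same total in every sum. Other neurons and Tac1 Trpv1 neurons served for comparison. The other neurons were the 2294 that met the same limits except that on Sstr2, a mixture of classes. The Tac1 Trpv1 neurons were the 721 of these with at least 10 UMIs and 5 per 10000 of Tac1 and at least 3 UMIs and 1 per 10000 of Trpv1. They served as another peptidergic group. Beyond Mrgprd and Pvalb no limit was set on markers of other neuron classes, so the group may hold such cells.

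The limit on Sstr2 divided a continuous range of values. The median member had 1.72, 2.21, 2.49 and 2.13 Sstr2 UMIs per 10000, and 53, 9, 29 and 31 members lay between 1 and 2 per 10000. Just outside, 20, 18, 47 and 20 other neurons had 3 or more Sstr2 UMIs but fell short of the share. The lowest member had 1.00 per 10000 and the highest excluded neuron 1.92, with fewer than 3 UMIs. The limits on Sprr1a, Mrgprd and Pvalb removed no neuron that met the Sstr2 limit. After each cell was thinned to 8000 UMIs, an Sstr2 UMI was found in 76.1%, 84%, 82.3% and 81.3% of members. In other neurons the shares were 5.33%, 7.80%, 3.95% and 2.36%. In glia of that depth they were 3.05%, 0.664%, 0.677% and 0.585%. Glia were chosen by at least 20 UMIs of Apoe and Fabp7, at least 5 times those of the neuron markers. No limit was set on markers of other cells. Their sums held immune markers at 685 to 2738 CPM and fibroblast markers at 663 to 5129 CPM, so they were a mixed class. They were taken to lack Sstr2, and their share serves as a guide to the free RNA in these droplets. No doublet caller was run, and the share in CON replicate 1 rests on 164 such glia. In unthinned glia (median depths of 4074.5 to 10804 UMIs per library) the share was 0.471% to 0.945%.

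The class carried its named markers in all libraries (the plot of marker levels by library). Sstr2, on chr11:113619327-113626028 of GRCm38, stood at 203, 217, 259 and 230.1 CPM in members and 7.04, 7.26, 5.41 and 4.31 CPM in other neurons. Nxn, on chr11:76257226-76399141, encodes the thioredoxin relative nucleoredoxin and stood at 186, 233, 221 and 234 CPM against 45.9, 35.5, 47.2 and 44.5 CPM. Dcdc2a, on chr13:25055273-25210706, encodes a doublecortin domain protein and stood at 58.0, 41.9, 37.2 and 33.1 CPM against 3.73, 2.68, 2.76 and 1.94 CPM. Pou4f3, a POU homeodomain transcription factor, stood at 79.2, 90.5, 90.5 and 84.4 CPM against 20.7, 13.1, 14.3 and 14.3 CPM. Nxn, Dcdc2a and Pou4f3 were named for the class with earlier results of these data known, so where they appear below among called genes this supports nothing about the class. Sstr2 was above both comparison groups in every library, which the limit on it set in advance. Nxn, Dcdc2a and Pou4f3 were also above both groups in every library. For each of them the lowest member value exceeded the highest value of the other neurons. The markers also met in single cells. At 8000 UMIs per cell, 2 or more of Nxn, Dcdc2a and Pou4f3 were found in 42 of 88, 15 of 25, 40 of 79 and 29 of 64 members and in 45 of 582, 7 of 141, 41 of 1062 and 24 of 509 other neurons. Members still differed among themselves, with a median of 1.75, 2.35, 2.28 and 2.29 Nxn UMIs per 10000 and a highest cell at 4.15 to 5.12.

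**Figure D1:**
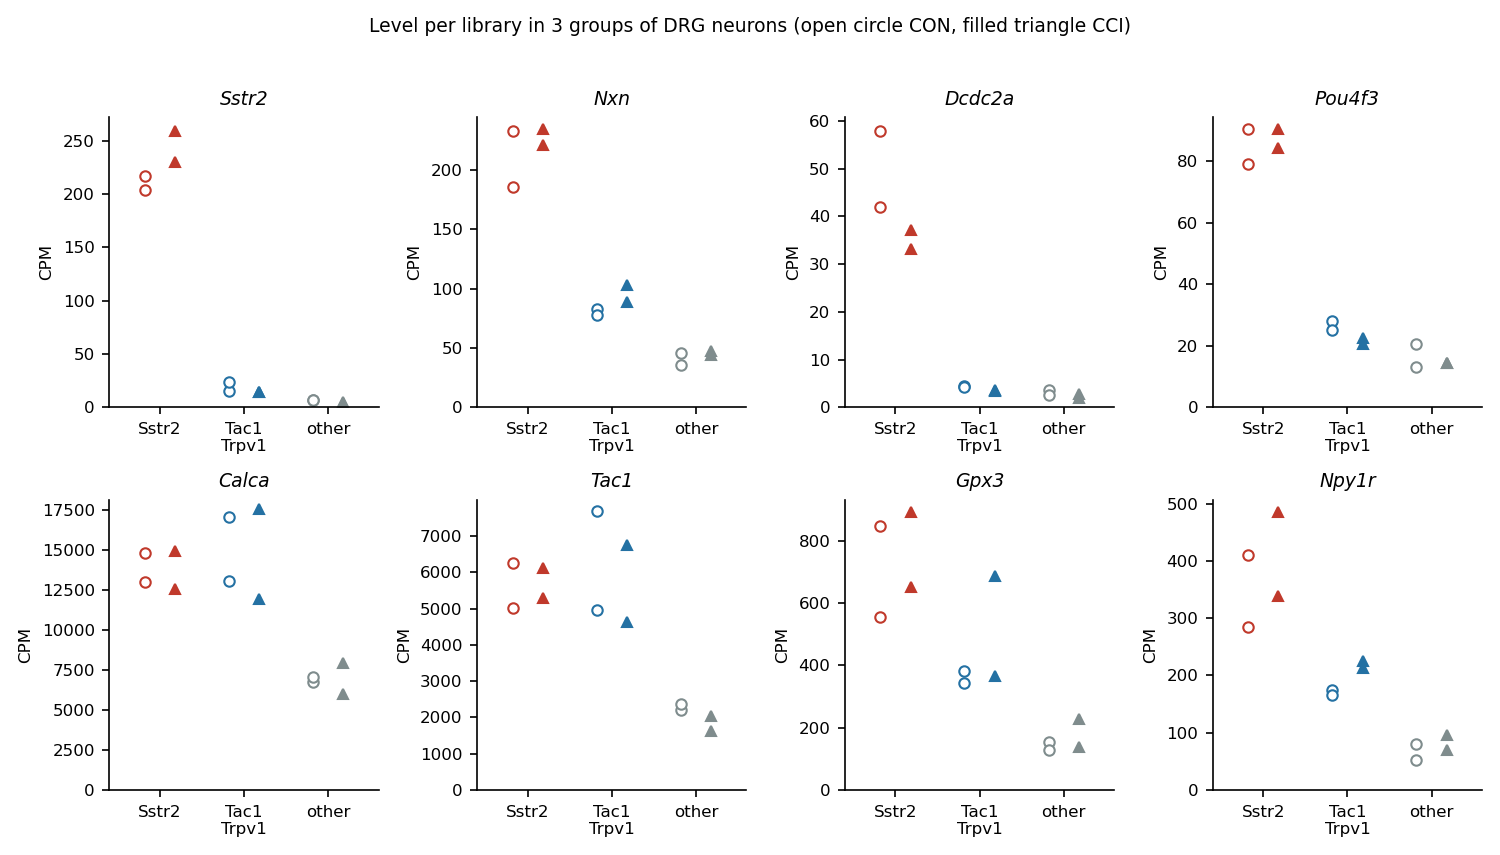
Levels (CPM of the UMI sum, linear axis from 0) of the 4 markers and of Calca, Tac1, Gpx3 and Npy1r in Sstr2 neurons, Tac1 Trpv1 neurons and other neurons; each point is 1 library, open circles CON and filled triangles CCI. Nxn, Dcdc2a and Pou4f3 lie higher in Sstr2 neurons in every library, as does Sstr2, which the limit set in advance. Calca lies in the same range in Sstr2 and Tac1 Trpv1 neurons, as does Tac1, by which the latter were chosen.

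The members were peptidergic by their transcripts. Calca stood at 12987, 14860.0, 12605 and 14939 CPM in members and 6785, 7099, 6012 and 7919 CPM in other neurons, a log2 fold change of 0.98 ± 0.04 (SE; edgeR adjusted p = 2.62e-06), and every member held a Calca UMI at 8000 UMIs per cell. Tac1 stood at 5017, 6268, 5284 and 6105 CPM against 2198, 2366, 1639.6 and 2051 CPM (1.45 ± 0.07, edgeR adjusted p = 3.41e-06), and every member held it too. Adcyap1, which encodes the neuropeptide PACAP, was 4.09-fold higher (1169.6, 1124, 1573 and 1449 CPM against 309, 182, 511 and 349 CPM, edgeR adjusted p = 1.62e-05). Trpv1, the heat and capsaicin channel, was higher by 0.44 ± 0.08 on the log2 scale (edgeR adjusted p = 0.00384). Gpx3, a glutathione peroxidase that the study used to mark PEP1 neurons, stood at 556, 846, 651 and 893 CPM against 153, 128, 139 and 227 CPM (edgeR adjusted p = 8.15e-06), whereas Hpca, its marker of PEP2 neurons, was lower at 25.4, 25.7, 28.1 and 17.5 CPM against 51.0, 91.2, 32.6 and 26.0 CPM (edgeR adjusted p = 0.0113). Of the 16 peptidergic genes listed, 9 were higher and 4 lower in members, with a median log2 fold change of 0.49 beside 0.01 over all genes. Over all 13000 genes tested, 18.3% were higher and 20% lower (2375 and 2605 genes, 38.3% together). The 4 that were lower were Prokr2, Oprk1, Smr2 and Hpca. Calcb, the gene of the other CGRP, did not pass the test (438, 511, 418 and 576 CPM against 388, 502, 359.7 and 578 CPM).

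Markers of other neuron classes were mostly lower in members than in other neurons, beside 20% of all genes. Of genes of the Sst and Nppb itch neurons (NP3), 8 of 9 tested were lower in members, with a median log2 fold change of -4.43. Sst stood at 0.977, 0, 0.253 and 0 CPM in members (3, 0, 1 and 0 UMIs) and at 141, 89.0, 42.6 and 64.2 CPM in other neurons. The members thus carried mRNA of the receptor and nearly none of its ligand. Nppb, the itch peptide precursor, stood at 0.652, 0, 1.01 and 3.13 CPM against 131, 190.3, 167 and 174 CPM. Of the genes of Mrgprd neurons (NP1), 6 of 8 tested were lower and none higher. For the Mrgpra3 itch neurons (NP2), 3 of 3 tested genes were lower, and Mrgpra3 itself, a receptor for pruritogens, stood at 0, 0.635, 0.506 and 0.261 CPM against 33.1, 65.6, 19.7 and 38.1 CPM. All 7 tested genes of C-fibre mechanoreceptors were lower, Tafa4 among them at 1.63, 0.318, 2.28 and 0.261 CPM against 77.1, 164, 52.0 and 85.0 CPM. Of the Trpm8 neuron genes 4 of 6 were lower, and of the A-fibre genes 16 of 17, with medians of -1.65 and -1.73. Against the Tac1 Trpv1 neurons alone, 7 of 7 NP3 genes, 5 of 6 Trpm8 neuron genes and 11 of 17 A-fibre genes were lower in members. Of the NP1 genes 5 of 7 were lower and 1 higher. The 3 tested genes of C-fibre mechanoreceptors and the 1 tested NP2 gene were lower too. Of all 11453 tested genes 10.5% were higher and 13.1% lower (1207 and 1503 genes, 23.7% in either direction).

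The largest differences from other neurons, by a rule on size, level and the same sign in every library, named 10 genes in each direction. Higher were Plpp4, Pou4f3, Car8, Zcchc12, Npy1r, Ccl2, Nxn, Ptprt, Kcnk3 and Kcnc4. Plpp4, a lipid phosphatase, stood at 56.7, 90.9, 70.0 and 90.9 CPM against 14.9, 14.1, 10.9 and 13.9 CPM, and Car8, a carbonic anhydrase relative that binds the inositol trisphosphate receptor, at 352, 394, 325 and 322 CPM against 86.4, 72.4, 57.1 and 50.4 CPM (2.40 ± 0.09, edgeR adjusted p = 1.93e-06). Ptprt, a receptor tyrosine phosphatase, stood at 251, 255, 278 and 197 CPM against 47.8, 36.4, 63.6 and 48.0 CPM. For these 3 genes the members did not overlap the other neurons in any library. Ccl2, a chemokine for monocytes, did overlap, at 62.9, 17.2, 162 and 269.9 CPM in members and 12.6, 1.95, 23.8 and 81.0 CPM in other neurons (2.32 ± 0.19, edgeR adjusted p = 4.37e-05), and did not pass without the library as a block (log2 fold change 2.05, adjusted p = 0.183). Glia held 83.5, 96.7, 64.8 and 862 CPM of Ccl2, and its part in the difference was not tested. Lower were Sst, Wfdc2, Gm7271, Nppb, Tafa4, Rarres1, P2ry1, Paqr5, Tmem45b and Tox3, with log2 fold changes from -8.12 to -5.60. Tmem45b, for example, stood at 3.26, 0.635, 5.82 and 4.95 CPM in members and 136, 264, 189.7 and 251 CPM in other neurons.

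Against Tac1 Trpv1 neurons the same rule named Mgst3, Kcnc4, Pou4f3, Bcl11a, Ptprd, Ptprt, Litaf, Tgfb1, Car8 and Slc29a1 as higher. Mgst3, a microsomal glutathione transferase, stood at 332, 481, 402 and 515 CPM in members and 88.1, 98.5, 113 and 121 CPM in Tac1 Trpv1 neurons (1.98 ± 0.07, edgeR adjusted p = 2.2e-10). Tgfb1, the growth factor TGF-beta, stood at 66.8, 99.7, 64.2 and 53.4 CPM against 24.7, 20.6, 25.9 and 23.6 CPM (1.47 ± 0.13, edgeR adjusted p = 1.21e-06). Slc29a1, an adenosine transporter, was higher by 1.39 ± 0.07. Lower were Calb1, Tmem233, Etv1, Spock3, Gna14, Tspan8, Aprt, Vat1l, Igfbp2 and Lgals3. Calb1, the calcium buffer calbindin, stood at 2.93, 0.635, 0.506 and 2.08 CPM in members and 42.5, 85.7, 54.8 and 62.0 CPM in Tac1 Trpv1 neurons (-5.36 ± 0.24, edgeR adjusted p = 1.65e-09), and Etv1, an ETS transcription factor, at 12.7, 0.635, 3.03 and 4.17 CPM against 100.3, 78.9, 52.5 and 55.5 CPM (-3.87 ± 0.23). Members and Tac1 Trpv1 neurons thus did not overlap in Calb1 or Etv1. Calb1 also stands on the lists of Trpm8 neuron and A-fibre genes. Tac1 and Trpv1 chose the comparison cells and are levels only, at 4970.4, 7692, 4631 and 6752 CPM and 395, 375, 399 and 364 CPM there against 5017, 6268, 5284 and 6105 CPM and 212, 226, 214 and 219.9 CPM in members. Calca differed by -0.13 ± 0.07 (95% interval -0.27 to 0.01, edgeR adjusted p = 0.179), and Gpx3, Adcyap1 and Kit were higher in members by 0.72, 0.66 and 0.89 on the log2 scale.

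Of the somatostatin receptors, Sstr2 was nearly the sole one detected. Sstr1 stood at 8.80, 1.91, 3.03 and 1.56 CPM in members, 27, 6, 12 and 6 UMIs, and was higher than in other neurons (1.32 ± 0.27, edgeR adjusted p = 0.00566). Sstr4 had 1, 0, 2 and 0 UMIs, and Sstr3 and Sstr5 had 0 in every sum, where a count of 0 allows up to 3 UMIs. Among 21 tested receptors of the Gi/o type without Sstr2, 9 were higher and 5 lower, beside 18.3% and 20% of all genes, with a median of 0.16. Npy1r, the neuropeptide Y receptor of peptidergic afferents, stood at 410.2, 285, 485 and 339 CPM against 81.1, 52.4, 95.6 and 69.9 CPM (2.33 ± 0.06, edgeR adjusted p = 5.81e-07) and was also higher than in Tac1 Trpv1 neurons (0.91 ± 0.08, edgeR adjusted p = 1.77e-06). The other neuropeptide Y receptor, Npy2r, went the opposite way, at 4.89, 4.45, 4.55 and 3.91 CPM against 56.8, 39.5, 47.4 and 34.3 CPM (-3.33 ± 0.12). Oprl1, the nociceptin receptor, was higher by 1.56 ± 0.18 than in other neurons and by 1.02 ± 0.15 than in Tac1 Trpv1 neurons (edgeR adjusted p = 0.000278 and 0.000153).

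The mu opioid receptor Oprm1 stood at 21.8, 18.1, 15.4 and 10.9 CPM against 14.1, 7.26, 7.76 and 4.63 CPM (1.01 ± 0.14, edgeR adjusted p = 0.000809), and its difference from Tac1 Trpv1 neurons was 0.23 ± 0.13 (95% interval -0.04 to 0.50). The kappa receptor Oprk1 was lower than in both groups, at 3.26, 0, 0 and 1.04 CPM, with 12.8, 8.01, 7.18 and 13.6 CPM in Tac1 Trpv1 neurons (-3.41 ± 0.41, edgeR adjusted p = 2.38e-05). The delta receptor Oprd1 had 0 UMIs in members. Cnr1, the cannabinoid receptor, and Galr1, a galanin receptor, were higher than in other neurons by 1.27 and 1.28 and did not pass against Tac1 Trpv1 neurons. Among the serotonin receptors Htr1b was higher (45.0, 68.9, 51.6 and 42.7 CPM against 24.6, 16.1, 17.7 and 14.9 CPM), while Htr1d and Htr1f were nearly absent (0.977, 0, 0.758 and 0.521 CPM of Htr1d and 0.652, 0, 3.54 and 0.521 CPM of Htr1f in members).

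Downstream of these receptors, 7 of 20 tested genes of Gi/o signalling were higher and 8 lower, beside 18.3% and 20% of all genes, with a median of 0.01. The GIRK subunit Kcnj3 was lower, at 4.24, 2.22, 0.506 and 1.30 CPM against 13.1, 9.72, 9.04 and 9.43 CPM (-2.43 ± 0.31, edgeR adjusted p = 0.000434), and lower than in Tac1 Trpv1 neurons (-2.64 ± 0.29). Kcnj6 stood at 0.652, 0.318, 0 and 0.261 CPM, Kcnj9 at 0.977, 0.318, 1.52 and 1.04 CPM and Kcnj5 at 0 in members, so every GIRK subunit was low in these sums. Kcnj3 also stands on the list of satellite glia markers, and glia held 3.74, 0.653, 1.06 and 0.607 CPM of it. The G protein subunit Gnai2 stood at 559, 553, 579.7 and 578 CPM and was slightly higher (0.29 ± 0.06, edgeR adjusted p = 0.00515), and Gnao1 was lower (-0.38 ± 0.07). Among the adenylyl cyclases, Adcy5, which Gi proteins inhibit, stood at 82.4, 74.0, 89.5 and 78.7 CPM against 39.2, 23.6, 36.6 and 28.8 CPM (1.34 ± 0.09, edgeR adjusted p = 1.73e-05), whereas Adcy1 and Adcy8, which calcium activates, were lower, with log2 fold changes of -3.83 and -4.77. Of the regulators that shorten G protein signals, Rgs4 was lower at 73.6, 28.0, 88.7 and 69.3 CPM against 580.0, 826, 529 and 600.3 CPM (-3.31 ± 0.30) and Rgs10 at 188, 129, 175 and 189 CPM against 912, 1037, 554 and 773 CPM (-2.25 ± 0.18). Rgs17 was higher by 0.50 ± 0.08 (edgeR adjusted p = 0.00202). Rgs4 and Rgs10 were also lower than in Tac1 Trpv1 neurons (edgeR adjusted p = 6.61e-05 and 0.000133).

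**Figure D2:**
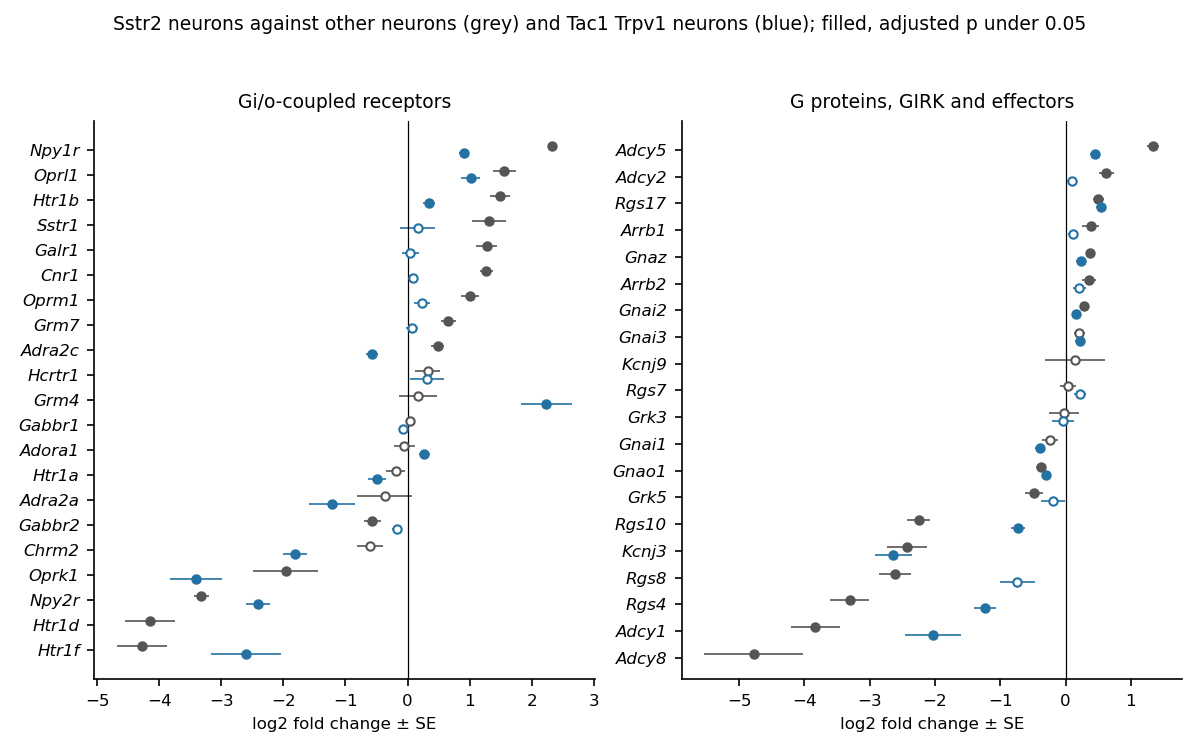
Log2 fold changes with SE (x axis) of Gi/o-coupled receptors (left) and of G proteins, GIRK channels and effectors (right) in Sstr2 neurons against other neurons (grey) and Tac1 Trpv1 neurons (blue), from 4 libraries; filled points passed an edgeR adjusted p of 0.05. Npy1r has the largest positive value among receptors against other neurons (2.33), and Kcnj3 is below 0 in both comparisons.

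Of the transduction channels, which turn a stimulus into current, 20 were tested, 4 were higher (Trpv1, Trpa1, Trpm3 and P2rx4) and 7 lower, beside 18.3% and 20% of all genes, with a median of -0.18. Trpm3, a heat channel, stood at 83.7, 75.6, 77.6 and 66.2 CPM against 45.3, 28.9, 34.7 and 25.1 CPM (1.19 ± 0.09, edgeR adjusted p = 2.9e-05), and Trpa1, the irritant channel, at 53.1, 26.7, 50.6 and 60.2 CPM against 21.4, 19.5, 28.1 and 26.2 CPM (0.96 ± 0.14, edgeR adjusted p = 0.000844). Piezo2, the channel of touch and proprioception, stood at 48.2, 24.5, 34.6 and 20.3 CPM against 300.0, 332, 158 and 208 CPM (-2.96 ± 0.22) and was also lower than in Tac1 Trpv1 neurons (-1.0 ± 0.08, edgeR adjusted p = 4.9e-07). Trpm8, the cold channel, stood at 2.28, 0.635, 1.77 and 1.04 CPM in members. Asic1, an acid-sensing channel, was lower, with log2 fold changes of -2.22 against other neurons and -2.21 against Tac1 Trpv1 neurons. P2rx3, the ATP channel of non-peptidergic neurons, did not pass in either comparison (7.17, 22.6, 8.09 and 6.25 CPM in members).

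Among the sodium channels, Scn11a, a nociceptor channel that sets excitability near rest, stood at 229, 238, 215 and 196 CPM against 178, 171, 142 and 138 CPM (0.47 ± 0.06, edgeR adjusted p = 0.000343), and was also higher than in Tac1 Trpv1 neurons (0.89 ± 0.06, edgeR adjusted p = 8.41e-08). Scn10a, the tetrodotoxin-resistant channel of nociceptors, did not differ past the threshold (229, 192, 215 and 200.3 CPM against 272, 182, 192 and 198 CPM, 95% interval -0.17 to 0.14). Scn9a, which amplifies small depolarisations in nociceptors, was slightly lower (335, 232, 237 and 175 CPM against 410.3, 342, 259 and 224 CPM, -0.35 ± 0.07). Scn1a, Scn8a and Scn4b, genes of myelinated neurons, were lower, with log2 fold changes of -3.27, -3.20 and -3.31. Of 13 tested sodium channel genes 2 were higher and 8 lower, beside 18.3% and 20% of all genes.

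**Figure D3:**
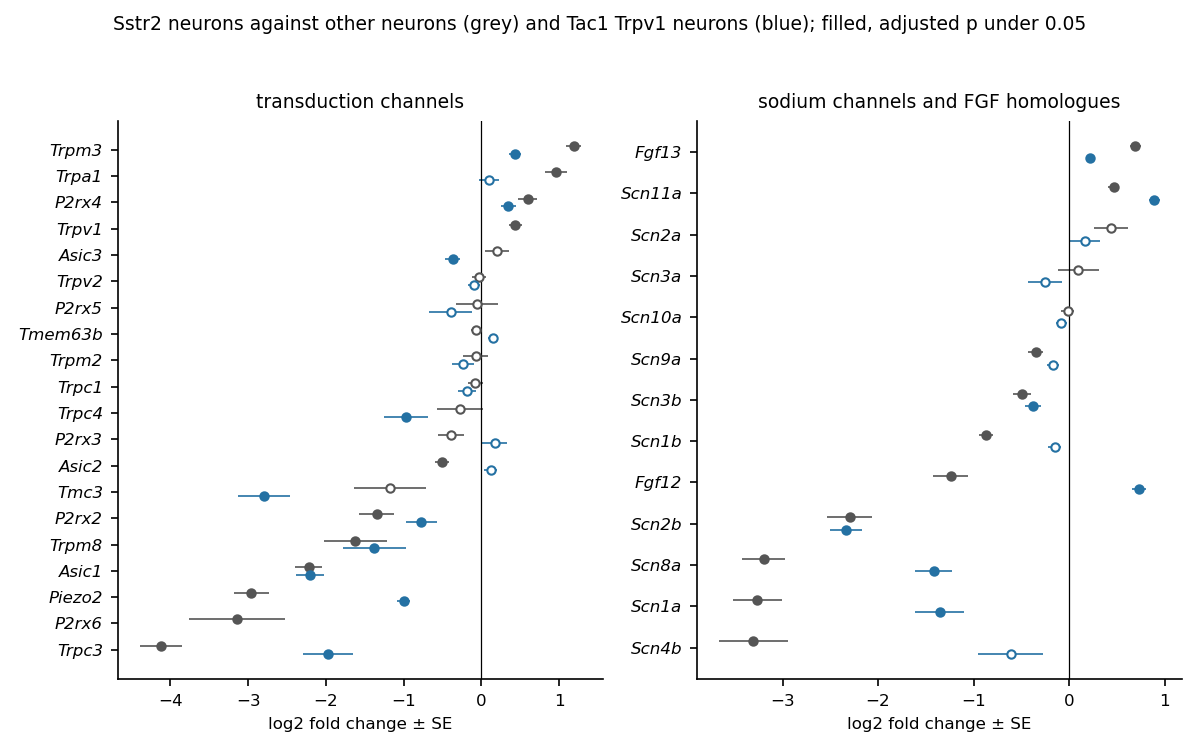
Log2 fold changes with SE (x axis) of transduction channels (left) and sodium channel genes (right) in Sstr2 neurons against other neurons (grey) and Tac1 Trpv1 neurons (blue), from 4 libraries; filled points passed an edgeR adjusted p of 0.05. Trpm3 is above 0 and Piezo2 below 0 in both comparisons, and Scn11a is above 0 in both.

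Of 48 tested potassium channel genes 25 were lower (20% of all genes) and 13 higher (18.3%) than in other neurons, with a median of -0.38. Against Tac1 Trpv1 neurons 14 of 44 were lower (13.1% of all genes) and 13 higher (10.5%). Kcnk3, an acid-sensitive background channel, stood at 141, 149, 106 and 127 CPM against 37.5, 18.4, 25.7 and 24.0 CPM (2.31 ± 0.16, edgeR adjusted p = 1.69e-05), and Kcnk2, a background channel opened by stretch and heat, at 86.0, 91.8, 73.8 and 57.6 CPM against 33.4, 19.3, 21.9 and 11.8 CPM (1.88 ± 0.14). Kcnc4, a voltage-gated channel, stood at 132, 109.9, 134 and 102 CPM in members. It stood at 37.2, 16.0, 23.4 and 30.5 CPM in other neurons and 45.7, 18.4, 33.0 and 27.1 CPM in Tac1 Trpv1 neurons. It passed against both (edgeR adjusted p = 2.86e-05 and 2.28e-08). Kcnq5, an M-current subunit, was higher by 2.0 ± 0.20 and 1.37 ± 0.18. Kcna1, a channel of myelinated fibres, was lower (7.49, 0, 7.84 and 5.73 CPM against 60.9, 40.8, 50.5 and 30.5 CPM), and Kcnk18, a background channel linked to migraine, was near 0 in members (1.30, 0, 0 and 0.261 CPM). Among calcium channel genes Cacna2d1, the gabapentin target, stood at 785, 672, 789 and 591 CPM against 343, 244, 498 and 300.0 CPM (1.05 ± 0.12, edgeR adjusted p = 0.000202), whereas Cacna2d3 stood at 3.91, 1.27, 3.79 and 0.521 CPM against 26.3, 27.3, 22.3 and 17.5 CPM (-3.31 ± 0.29). In all, 7 of 15 calcium channel genes were higher and 5 lower, beside 18.3% and 20% of all genes.

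Among receptors for growth factors, Gfra3, the co-receptor for artemin, was higher by 1.09 ± 0.12 than in other neurons (296, 365, 323 and 370.5 CPM against 121, 131, 203 and 184 CPM) and did not pass against Tac1 Trpv1 neurons. Kit, the stem cell factor receptor, stood at 145, 181, 130.2 and 115 CPM against 53.4, 34.5, 40.6 and 34.1 CPM (1.79 ± 0.13, edgeR adjusted p = 2.6e-05). Gfra2, the neurturin co-receptor, Ntrk3 and Ntrk2 were lower, with log2 fold changes of -5.30, -3.47 and -1.55. Osmr, the oncostatin M receptor, stood at 9.77, 2.86, 3.29 and 7.56 CPM against 47.1, 58.9, 37.4 and 24.9 CPM in Tac1 Trpv1 neurons (-2.83 ± 0.24, edgeR adjusted p = 8.97e-07), with no overlap between the groups. Of 25 tested receptors 6 were higher and 11 lower, beside the same shares of all genes (18.3% and 20%).

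Of 35 transcription factors tested, 12 were higher and 15 lower, beside 18.3% and 20% of all genes. Bcl11a, a zinc finger factor, stood at 55.4, 59.7, 60.9 and 55.2 CPM in members, 13.2, 6.20, 8.82 and 8.26 CPM in other neurons and 21.2, 14.8, 17.0 and 15.4 CPM in Tac1 Trpv1 neurons (2.68 ± 0.16 and 1.72 ± 0.10, edgeR adjusted p = 1e-05 and 1.77e-08). Its relative Bcl11b was higher by 1.61 ± 0.17, and Zeb2 and Hoxd1 by 1.63 and 1.66. Runx1, a factor of nociceptor identity, was higher by 0.46 ± 0.12 than in other neurons and by 0.90 ± 0.06 than in Tac1 Trpv1 neurons. Within the POU family, Pou4f3 was high while Pou4f1, which most sensory neurons express, was lower (119, 89.3, 107 and 86.0 CPM against 233, 225, 157 and 172 CPM, -0.98 ± 0.11) and Pou4f2 stood at 0.652, 0, 0.253 and 0.261 CPM against 17.5, 39.1, 9.95 and 15.7 CPM. Etv1 and Onecut2 were lower than in both groups.

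Genes of transmitter release showed the vesicular glutamate transporter Slc17a6 at 184, 166, 197 and 183 CPM, with no call against other neurons and a lower level than in Tac1 Trpv1 neurons (-0.33 ± 0.05). Slc17a8, the transporter of C-fibre mechanoreceptors, was near 0. Of 21 tested synapse genes 8 were higher and 10 lower, beside 18.3% and 20% of all genes. The same shares stand beside the counts of the other lists in this paragraph. Syt4, a synaptotagmin of dense core vesicles, stood at 1381, 1210.0, 1616 and 1405 CPM against 602, 361, 933 and 665 CPM (1.18 ± 0.13, edgeR adjusted p = 0.000205), and Syt1, that of fast release, was lower (-1.18 ± 0.18). Of the neuropeptide and granule genes 10 of 23 were higher and 7 lower, Cpe and Pcsk2, which process peptides, among the latter (-1.06 and -0.46). The AMPA receptor gene Gria1 and the NMDA receptor gene Grin3a were higher by 1.75 and 1.46, while 11 of 23 tested receptor genes for glutamate and GABA were lower and 6 higher. Guidance and adhesion genes were mostly lower, 20 of 37 against 6 higher, with Nrp1, a semaphorin co-receptor, at 8.47, 1.91, 3.54 and 4.69 CPM against 41.9, 32.0, 37.5 and 38.5 CPM in Tac1 Trpv1 neurons (-3.08 ± 0.18, edgeR adjusted p = 2.96e-08).

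Of the immediate early and dissociation genes, which include heat shock genes, 12 of 18 were higher in members than in other neurons (18.3% of all genes) and 14 of 18 than in Tac1 Trpv1 neurons (10.5%). Hspb1, a small heat shock protein gene, was lower in both comparisons (-0.66 ± 0.13, edgeR adjusted p = 0.00428, and -0.77 ± 0.08, edgeR adjusted p = 6.29e-06). Fos stood at 248, 105, 372 and 714 CPM against 146, 61.9, 172 and 550.3 CPM in Tac1 Trpv1 neurons (0.70 ± 0.09, edgeR adjusted p = 5.81e-05), and Npas4, which neuronal activity induces, at 13.4, 2.22, 10.6 and 3.39 CPM against 2.05, 0.401, 3.20 and 1.03 CPM (2.04 ± 0.27, edgeR adjusted p = 4.92e-05). The summed level of the 18 genes was 5291, 3698, 6200 and 6300 CPM in members and 4622, 3838, 5472 and 6360 CPM in Tac1 Trpv1 neurons, so the summed levels overlapped although most single genes differed. The part of dissociation in these differences was not tested.

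Markers of other cells were compared between the groups as well. The 10 satellite glia markers summed to 853 to 1411 CPM in members, 958 to 1157 CPM in other neurons and 12184 to 16489 CPM in glia, and none was at 0 over the member sums. The 8 Schwann cell markers summed to 556 to 669 CPM in members and 875 to 1222 CPM in other neurons, and 6 of 7 tested were lower in members (20% of all genes). Endothelial and mural markers summed to 25.5 to 55.8 CPM in members. Immune markers summed to 9.86 to 11.7 CPM in 3 of the libraries and 109 CPM in CCI replicate 2. Hemoglobin and other red cell genes summed to 39.1, 11.8, 827 and 18.0 CPM, and 1 cell of CCI replicate 1 held 98.0% of the Hba-a1 and 98.5% of the Hbb-bt UMIs of its members. The glial gene Apoe had a median of 1.70, 1.74, 1.11 and 0.78 UMIs per 10000 in members, but 82.6, 53.9, 87.4 and 75.5 in the highest cell.

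After CCI the share of Sstr2 neurons was lower as counted, and the mean shares were close at equal depth, where far fewer cells met the limit. The members made up 9.37% (95% exact binomial interval 7.58 to 11.4) and 10.1% (6.66 to 14.6) of neurons in CON and 4.78% (3.80 to 5.92) and 7.10% (5.51 to 8.98) in CCI, or 9.75% ± 0.53 (SD, n = 2) against 5.94% ± 1.64 (SD, n = 2). The intervals cover counting error only. With 2 libraries a group no exact permutation test can give a 2-sided p under 0.33, so the shares are a description. Every neuron was also thinned to 8000 UMIs and the Sstr2 limit applied again, with the other limits on unthinned values. At this depth 3 UMIs are a larger share of a cell than 1 per 10000. The shares were 1.70% (16 cells, interval 0.977 to 2.75), 3.24% (8, 1.41 to 6.28), 1.69% (28, 1.13 to 2.44) and 3.11% (28, 2.07 to 4.46). Their means were 2.47% ± 1.09 (SD, n = 2) and 2.40% ± 1.00 (SD, n = 2), and no difference was detectable at this depth. With so few cells, chosen at a higher share, this does not tell whether depth made the difference as counted. Among neurons under the Sprr1a limit, which leaves the Sprr1a-high neurons out of the denominator, the CON libraries held 9.38% and 10.2% members, the CCI libraries 5.59% and 9.76%, and CCI replicate 2 lay between the CON libraries. Among neurons under all the same limits the mean share was 14.1% ± 1.36 in CON and 9.05% ± 3.00 in CCI (SD, n = 2 each), a difference of -5.05 percentage points. At the stricter limit of 5 UMIs and 2 per 10000 the difference was -1.74 percentage points in place of -3.81.

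No Sstr2 neuron carried much Sprr1a, the growth protein that marks injured neurons in this study. In CON no member had a UMI of it, and in CCI the highest member had 0.77 and 2.84 per 10000 in replicates 1 and 2, far under the limit of 10 (the plot of Sstr2 and Sprr1a in single neurons). The members' sums held 13.7 and 23.4 CPM of Sprr1a in CCI. Glia of the same libraries held 50.8 and 43.9 CPM and endothelial cells 24.4 and 20.4 CPM. Members lay below both in replicate 1 and between them in replicate 2. At 8000 UMIs per cell, a Sprr1a UMI was found in 10.1% and 14.1% of CCI members and in 23.5% and 20.3% of glia. Conversely, of the 487 neurons at or over the Sprr1a limit, 485 of them in CCI, 0 met the Sstr2 limit, which allows a share of up to 0.616%. Of these 487, 12 held any Sstr2 UMI, and at 8000 UMIs the shares in CCI, 0.833% and 0.816%, were close to the glial 0.677% and 0.585%. A neuron without Sstr2 mRNA could not be a member whatever its class, so these values do not tell which classes the Sprr1a-high neurons came from.

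**Figure D4:**
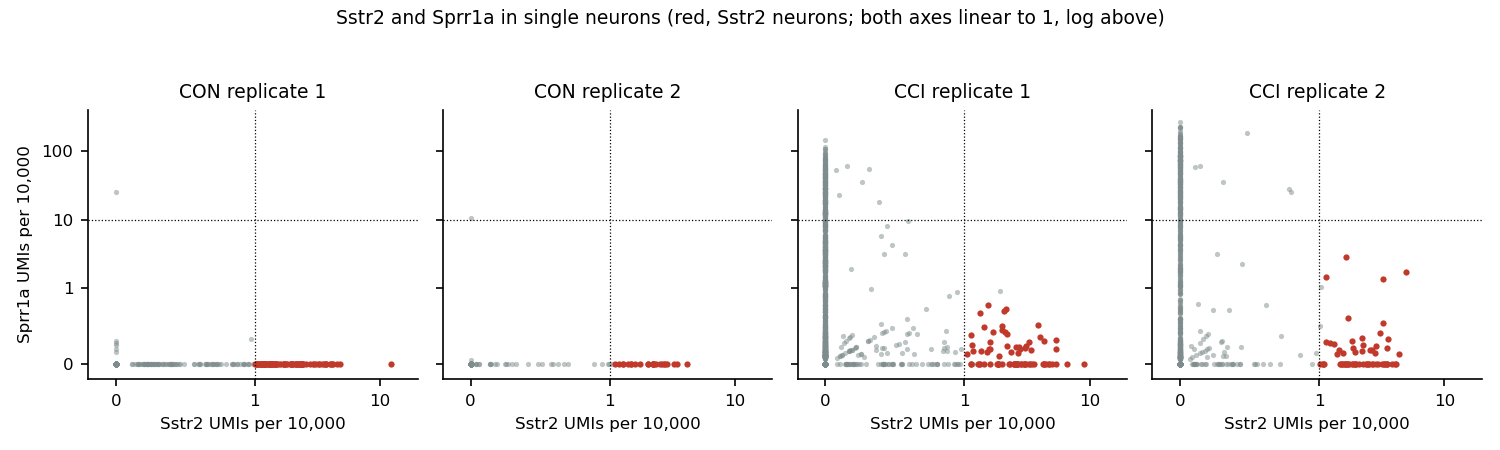
Sstr2 (x axis) and Sprr1a (y axis) UMIs per 10000 UMIs in each neuron of the 4 libraries, both axes linear to 1 and logarithmic above; red points are Sstr2 neurons, grey points all other neurons, and dotted lines the limits of 1 and 10. The 487 neurons at or over the Sprr1a limit are nearly all in CCI, and the area right of the Sstr2 limit and above the Sprr1a limit is empty in every library.

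The gene that rose after CCI in Sstr2 neurons was Timp1, the tissue inhibitor of metalloproteinases. It stood at 6.52 and 5.72 CPM in CON and 81.2 and 75.3 CPM in CCI (20 and 18 against 321 and 289 UMIs), a log2 fold change of 3.69 ± 0.27 (edgeR adjusted p = 0.00187), and the CCI libraries lay far above both CON libraries. It was the sole call among 10988 genes tested (0.0091%), while 366 genes had an unadjusted p under 0.05 and DESeq2 called 14, all higher in CCI. Timp1 held a UMI in 8 of 88, 7 of 25, 33 of 79 and 41 of 64 members, and the highest cell held 10.9% and 13.1% of its UMIs in the CCI libraries. Timp1 lies on chrX:20870166-20874737 within the span of Syn1 (chrX:20860511-20920918), and the strand setting of the counting was not given in the sources used here. Syn1 stood at 198, 199.8, 182 and 148 CPM in members. Timp1 also rose in other neurons (5.42 and 1.73 to 67.5 and 69.0 CPM, edgeR adjusted p = 0.00151) and in Tac1 Trpv1 neurons (10.7 and 3.81 to 107 and 159 CPM, edgeR adjusted p = 0.00617), and glia went from 6.32 and 7.25 to 29.1 and 61.6 CPM. Fibroblast markers summed to 178 and 78.8 CPM in CON members and 120.1 and 218 CPM in CCI members. Of 5 tested, edgeR and DESeq2 called 0, 2 had an unadjusted p under 0.05 (Lum and Col3a1) and 3 lay higher in both CCI libraries (12.6% of all genes did), with a median log2 fold change of 1.72. In other neurons 4 of 6 rose (Lum, Col1a1, Col1a2 and Col3a1), beside 1.99% of all genes. The part of fibroblast RNA and of free RNA in the members' rise of Timp1 was not tested.

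Further genes were higher in both CCI libraries without passing edgeR's threshold. The injury gene Serpinb1a, a protease inhibitor, stood at 26.1 and 11.1 CPM in CON and 144 and 114 CPM in CCI (2.82 ± 0.35, edgeR adjusted p = 0.0506, DESeq2 2.4e-11). Flrt3, a guidance receptor ligand, stood at 20.2 and 18.7 CPM in CON and 71.0 and 68.5 CPM in CCI (1.86 ± 0.23, edgeR adjusted p = 0.0506, DESeq2 1.78e-05). The cytokine Il6 stood at 1.95 and 1.91 CPM in CON and 20.7 and 55.0 CPM in CCI and Alkal2, whose product activates the receptor kinase ALK, at 13.7 and 4.76 CPM in CON and 64.5 and 125 CPM in CCI (edgeR adjusted p = 0.0736 and 0.0788). The granule protein gene Vgf stood at 121 and 131 CPM in CON and 314 and 414 CPM in CCI (1.55 ± 0.24, edgeR adjusted p = 0.138), and Bdnf, the neurotrophin, at 235 and 271 CPM in CON and 508 and 572 CPM in CCI (1.12 ± 0.22, edgeR adjusted p = 0.378). Members had more Bdnf than other neurons in every library (1.59 ± 0.08, edgeR adjusted p = 4.43e-06). The 14 calls of DESeq2 were Timp1, Serpinb1a, Alkal2, Il6, Vgf, Flrt3, Socs1, Phlda1, Bdnf, Socs3, Gadd45g, Arid5a, Fosl2 and Sprr1a, of which Sprr1a belongs to the limits. Npy, the ligand of Npy1r, had 0 UMIs in both CON sums, with a count of 0 allowing 3 UMIs, and 6.57 and 8.34 CPM in CCI, where glia held 39.8 and 29.4 CPM. The brain cytoplasmic RNA Bc1 stood at 866 and 224 CPM in CON and 37.7 and 57.8 CPM in CCI, and it fell in other neurons (-3.38 ± 0.54, edgeR adjusted p = 0.0165) and was lower in glia, at 236 and 42.1 CPM in CON and 7.81 and 10.8 CPM in CCI.

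**Figure D5:**
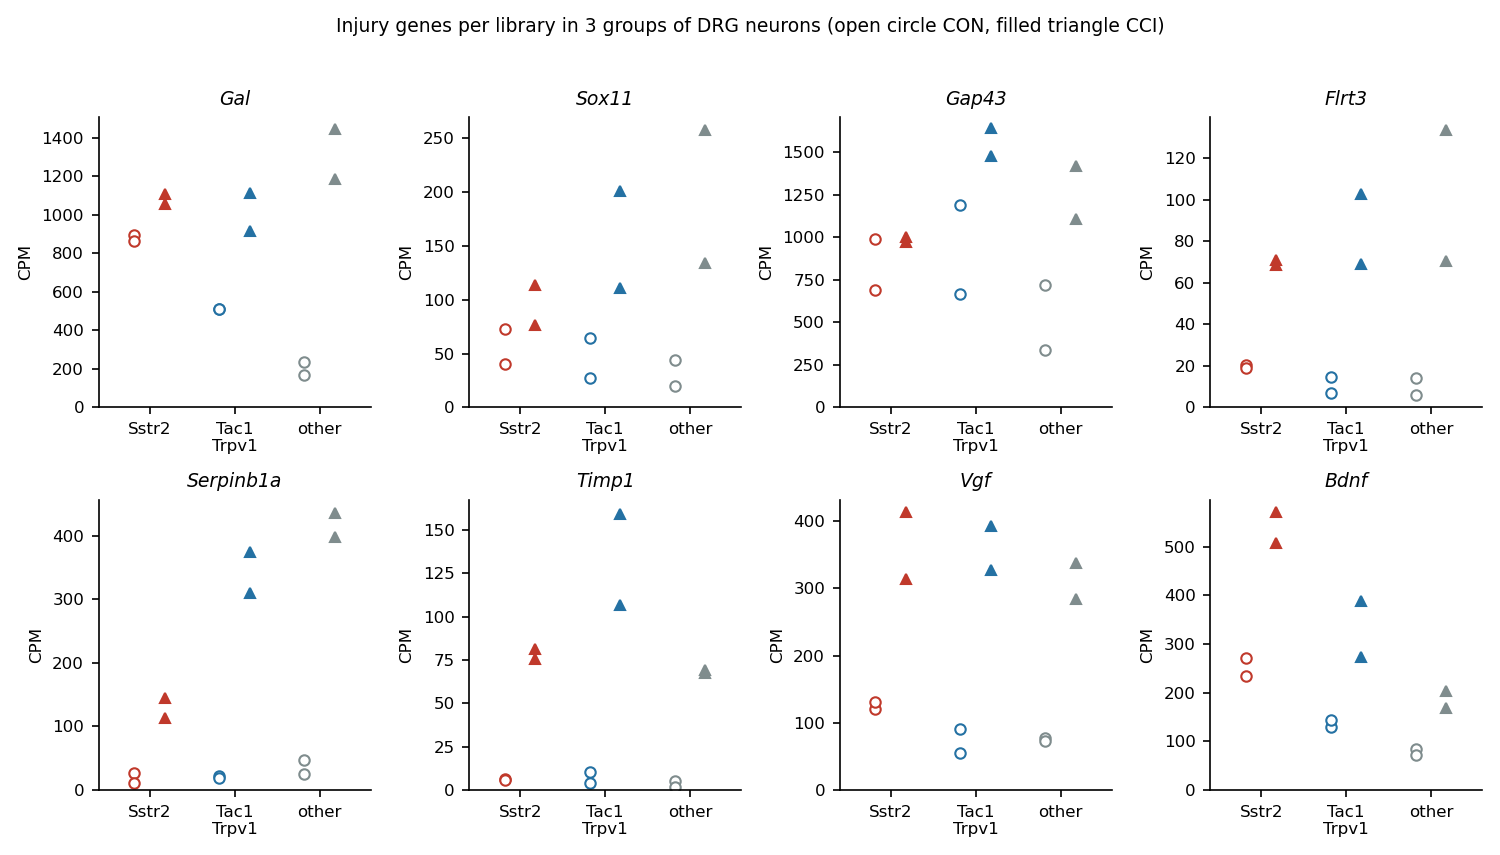
Levels (CPM of the UMI sum, linear axis from 0) of 8 injury genes in Sstr2 neurons, Tac1 Trpv1 neurons and other neurons; each point is 1 library, open circles CON and filled triangles CCI. In Sstr2 neurons Gal lies between 861 and 1106 CPM in all 4 libraries, while in other neurons it lies at 165 to 234 CPM in CON and 1184 to 1442 CPM in CCI.

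Of the genes that the study followed as regeneration-associated, none passed the edgeR test in members. The study chose them on these samples, so their direction is not independent evidence. Without Sprr1a there were 8, of which 7 were tested in members. Of these, 5 had an unadjusted p under 0.05, DESeq2 called 2 (Flrt3 and Serpinb1a), and 6 had CCI values above both CON values, beside 12.6% of all genes tested. Their median log2 fold change was 0.78, beside -0.01 over all genes. In other neurons 7 of 8 rose, with a median of 2.93 (of 14710 genes 1.99% rose and 0.0816% fell there, 2.07% together), and in Tac1 Trpv1 neurons 4 of 8, with a median of 2.24 (of 12768 genes 0.274% rose and 0.00783% fell, 0.282% together). Among 30 further injury genes, 1 of 21 tested rose in members (Timp1), 18 of 28 in other neurons and 10 of 26 in Tac1 Trpv1 neurons, with medians of 1.12, 2.25 and 1.61. The sums of other neurons were larger (17904466 to 55775708 UMIs per library), and after they were thinned to the members' UMIs 172 genes were called in place of 304. In Tac1 Trpv1 neurons the same thinning gave 51 genes in place of 36. The thinning was a single draw that matched UMIs and left the cell numbers unequal, so these counts do not compare the groups at equal power.

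The difference of the CCI effect itself was tested between members and other neurons, and 15 of 13706 genes passed (0.109%), 13 with a lower CCI effect in members (0.0948%) and 2 with a higher one (0.0146%). A neuron without Sstr2 mRNA after CCI could not be a member but could count among the other neurons. The choice of cells and a weaker CCI effect in members can therefore not be told apart. Gal, which encodes the neuropeptide galanin and lies on chr19:3409915-3414544, stood apart. In members it was already at 892 and 861 CPM in CON and stood at 1056 and 1106 CPM in CCI, an effect of 0.33 ± 0.19 (95% interval -0.11 to 0.76, edgeR adjusted p = 1), and every CON member held at least 1 UMI. In other neurons it went from 234 and 165 to 1442 and 1184 CPM (2.78 ± 0.24, edgeR adjusted p = 0.00102). The difference was -2.47 ± 0.15 (edgeR adjusted p = 0.000299), with log2 values from -3.88 to -2.27 over the 6 alternatives run, each past the threshold, and it was the sole gene of the 15 to pass in all of them. The median CON member had 8.37 and 8.01 Gal UMIs per 10000, and the median other neuron 0.

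Sox11, a transcription factor of regenerating neurons, stood at 72.6 and 40.0 CPM in CON and 114 and 76.1 CPM in CCI in members and 43.7 and 19.7 CPM in CON and 258 and 134 CPM in CCI in other neurons, a difference of -1.91 ± 0.17 (edgeR adjusted p = 0.00519). Gap43, the growth cone protein, stood at 989 and 688 CPM in CON and 1001 and 970.5 CPM in CCI against 720.2 and 336 CPM in CON and 1418 and 1107 CPM in CCI (-1.13 ± 0.16, edgeR adjusted p = 0.0472). Csf1, a macrophage and microglia growth factor, stood at 20.5 and 8.26 CPM in CON and 26.0 and 17.2 CPM in CCI against 8.94 and 4.02 CPM in CON and 43.9 and 22.4 CPM in CCI (-1.78 ± 0.25, edgeR adjusted p = 0.0445), and the microtubule genes Stmn4 and Tuba1c differed by -1.69 ± 0.22 and -1.89 ± 0.25. The rest were Gm29773, Lmo7, Kif22, Bcam, S100a11, Pkib and Ly6a, with differences from -2.80 to -0.88. The 2 with a positive difference were Hba-a1 and Hbb-bt, whose CCI value in members came from the 1 cell named above. Without it, CCI replicate 1 held 2.80 CPM of Hba-a1 and 1.53 CPM of Hbb-bt. Both share reads with near-identical gene copies and are uncertain. Without CON replicate 1, 286 genes passed, 148 with a higher and 138 with a lower CCI effect in members, so most calls were no longer on the lower side. Without CCI replicate 1, 1 gene passed in each direction. Without CON replicate 2, 13 had a higher and 98 a lower effect, and without CCI replicate 2, 5 had a higher and 25 a lower one.

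Against the Tac1 Trpv1 neurons no gene passed the same test by edgeR, the sole tool run for it, with 676 of 12008 genes at an unadjusted p under 0.05. There the difference for Gal was -0.73 ± 0.11 (95% interval -0.98 to -0.49, edgeR adjusted p = 0.101) and for Sox11 -1.07 ± 0.15 (edgeR adjusted p = 0.0872). In Tac1 Trpv1 neurons Gal stood at 509 and 513 CPM in CON and 1112 and 914 CPM in CCI. Gadd45a, a stress gene, stood at 22.5 and 26.0 CPM in CON and 36.4 and 44.0 CPM in CCI in members and 27.8 and 39.3 CPM in CON and 156 and 91.1 CPM in CCI in Tac1 Trpv1 neurons, where it rose (edgeR adjusted p = 0.0374), and the difference was not past the threshold (edgeR adjusted p = 0.689).

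After CCI no receptor or channel gene of the lists was called, which with 0.0091% of all genes called says nothing particular about the lists. Sstr2 stood at 203 and 217 CPM in CON members and 259 and 230.1 CPM in CCI members, values that the limit itself bounds from below. Of the Gi/o receptors, transduction channels, sodium channels, potassium channels and calcium channels, 17, 15, 12, 41 and 12 were tested with edgeR. Of these, 0, 0, 0, 2 and 0 had an unadjusted p under 0.05, and DESeq2 called 0 in each list. The list medians were -0.26, -0.03, -0.19, -0.06 and -0.04. Of 21 tested receptors for trophic factors and cytokines 3 had an unadjusted edgeR p under 0.05, and the median was -0.14. The largest rise there was that of Gfra1, with 12 and 4 UMIs in CON and 62 and 30 in CCI, while 6 of the 21 had a positive change. Of 14 tested glutamate and GABA receptors 1 had such a p, with a median of -0.16. DESeq2 called 0 in both lists. The 95% interval of the CCI effect was -0.29 to 0.83 for Npy1r, -1.21 to 0.06 for Oprm1, -0.46 to 0.48 for Trpv1, -0.99 to 0.11 for Scn9a and -0.54 to 0.42 for Cacna2d1 on the log2 scale. Calca and Tac1 differed by 0.01 ± 0.19 and 0.04 ± 0.21 between CCI and CON, with intervals of -0.42 to 0.44 and -0.43 to 0.50. Cartpt, a peptide precursor, stood at 675 and 339 CPM in CON and 191 and 256 CPM in CCI (-1.14 ± 0.32, edgeR adjusted p = 0.823). Atf3, the injury transcription factor, stood at 203 and 18.4 CPM in CON and 281 and 471 CPM in CCI, and its CON libraries differed widely from each other (1.82 ± 0.76, edgeR adjusted p = 1). Of the 18 immediate early and dissociation genes, 10 lay higher in both CCI libraries than in both CON libraries (12.6% of all genes did), 8 had an unadjusted p under 0.05, and neither edgeR nor DESeq2 (0) called any.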

How the data were processed

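Droplet single-cell RNA-seq was made by the authors from DRGs at L4 and L5, as 2 libraries of CON and 2 of CCI. Per the labels and the matrix header the deposited values are raw UMI counts of 31253 genes from Cell Ranger 5.0.1 on mm10, and the study's methods name fastp and Ensembl release 100. The deposited matrices are filtered barcodes, with no strand setting stated. The extract protocol of the labels and the methods of the study describe different dissociations. Libraries held 52074235 to 135009606 UMIs. The binomial intervals of shares cover counting error only.

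UMI counts were summed per library and cell group and fitted with edgeR 4.0.16 (quasi-likelihood, TMM factors, filterByExpr, Benjamini-Hochberg adjustment, threshold 0.05) in R 4.3.3, with limma 3.58.1 loaded. Comparisons of cell groups and the interaction had the library as a block. Log2 fold changes are given ± SE. Cells were selected in Python 3.11.15. Thinning drew 8000 UMIs from each cell. Glia and endothelial cells, taken as a guide to free RNA, were chosen by their markers. The alternatives tried included DESeq2 1.42.0, scaling by the upper quartile, no low-count filter, a stricter Sstr2 limit, thinned cells, and each library left out. No doublet caller was run, and the members with many glial UMIs were left out as an alternative. Positions are those of RefSeq on GRCm38.p6.

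Named genes were the 4 markers, in each comparison up to 10 genes per direction by log2 fold change (adjusted p under 0.05, mean of at least 5 log2 CPM, the same sign in all libraries or no overlap), and members of 29 lists (468 genes). Members and lists were chosen with earlier results of these data known. Sstr2, Sprr1a, Mrgprd, Pvalb, Snap25, Uchl1, Tubb3, Apoe, Fabp7 and mitochondrial genes, which the limits use, stayed in the fits and in counts over all genes, but no test of them is given. The code was tested on simulated data.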

Additional observations from a re-analysis of the deposited data

Results flagged for a closer look

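The CCI effect differed between Sstr2 neurons and other neurons in 15 genes by the edgeR test of the interaction, and these differences, as CCI against CON in members minus the same in other neurons on the log2 scale, are given as values. Only members had to hold Sstr2 mRNA, and the part of this choice of cells in the differences was not tested. Gal differed by -2.47, and in members it stood at 892 and 861 CPM in CON and 1056 and 1106 CPM in CCI. Sox11 differed by -1.91, Gap43 by -1.13, Csf1 by -1.78, Stmn4 by -1.69 and Tuba1c by -1.89. Lmo7 differed by -2.28 and rose in other neurons (5.38 and 3.13 to 64.0 and 41.7 CPM, edgeR adjusted p = 0.000835), with 16.9 and 17.8 CPM in CON and 50.3 and 40.1 CPM in CCI in members. Kif22, a kinesin, differed by -1.55, Pkib, an inhibitor of protein kinase A, by -1.43, S100a11 by -0.95, Bcam, a laminin receptor, by -0.88 and Ly6a by -1.44. Gm29773 differed by -2.80 at 30.0, 6.99, 6.32 and 1.56 CPM in members. Hba-a1 and Hbb-bt, hemoglobin genes, differed by 5.64 and 5.87, and nearly all of their CCI UMIs in members were in 1 cell of CCI replicate 1. Against Tac1 Trpv1 neurons none of the 15 differences passed the edgeR test.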

How the results depend on the processing

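The count of genes changed by CCI in Sstr2 neurons, 1 by the fit reported, was 14 with DESeq2, 4 with upper-quartile factors, 46 with no filter on low counts, 14 with the stricter Sstr2 limit, 4 with cells thinned to 8000 UMIs, 2 with fewer glial UMIs and 6 with mitochondrial UMIs under 10%. Leaving out 1 library gave 16 to 155 genes (155 without CON replicate 1, 110 without CON replicate 2, 30 without CCI replicate 1 and 16 without CCI replicate 2), where the lone sample of a group is assumed to vary like the other group. The replicate block gave 72 genes, although the labels do not say that same-numbered libraries share anything, and their deviations correlated at 0.276 over 10988 genes in 2 pairs. Timp1 was called under each of these, with log2 fold changes of 3.05 to 3.76. Without the deepest 10% of members, an alternative chosen after the data were seen, and without the Sprr1a limit the count was 1. Against other neurons the 4980 genes became 1690 with thinned cells and 2557 without the library block, and 3332 to 4432 with 1 library left out. Against Tac1 Trpv1 neurons the 2710 became 748 with thinned cells and 1688 with DESeq2. The interaction, with 15 genes, gave 39 with DESeq2, 181 with no Sprr1a limit, 0 against Tac1 Trpv1 neurons and 2 to 286 with 1 library left out. Without the Sprr1a limit the members in the interaction stayed the same, and only the other neurons gained cells, those high in Sprr1a. In other neurons, the 304 genes changed by CCI became 172 in sums thinned to the UMIs of the Sstr2 neurons. The 36 in Tac1 Trpv1 neurons became 51 in the same way, with cell numbers left unequal in both. The share of Sstr2 neurons differed by -1.74 percentage points at the stricter limit and by -0.0706 with thinned cells. No named gene's difference changed sign between the fit reported and an alternative where either passed the threshold. Changes of sign where neither passed were not counted. The interaction's calls, 2 higher and 13 lower as reported, were no longer mostly lower without CON replicate 1. The cause of these changes was not tested. Of the values of single named genes under the alternatives, 259 of 260 against other neurons and 140 of 140 against Tac1 Trpv1 neurons kept their side of the threshold. After CCI 328 kept it and 99 moved past it, with 10 of 32 genes on the same side in all alternatives, and in the interaction 66 kept it and 23 lost it, with 1 of 15. The 328 include the values of the fit without the Sprr1a limit, which used the same members as the fit reported. Members numbered 25 in CON replicate 2, which limits what low genes can show.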
